A study of Mus musculus with 12 samples.

Results

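A set of 10 genes of the TGF-beta and BMP pathways were followed across mouse neural progenitor cells (NPCs) in which the Srf pathway had been perturbed. They were the ligand genes Tgfb1, Tgfb2, Tgfb3, Inhba and Bmp4, the matrix gene Tgfbi, the inhibitory Smad gene Smad7, and Id1, Id2 and Id3. They were chosen by name, with earlier results of these data known. Every probe of each was used, out of 21154 genes that could be named on the array. The 10 genes had 12 probes, of which 11 were well above background on all 12 arrays, and 2 genes (Tgfb2 and Bmp4) had 2 probes each. The question was whether the smooth muscle program of these cells comes with signs of TGF-beta signalling.

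The cells were mouse NPCs kept in a medium with EGF and bFGF. Expression was measured on 12 one-colour arrays in 6 groups of 2. In one experiment the cells received a retroviral transgene of EGFP, a fluorescent protein that served as the control, of Mkl1 or of Srf. The other experiment knocked down the β-actin gene Actb with either of 2 retroviral hairpins, shActb_1 and shActb_2, and its control was a hairpin that targets EGFP (shEGFP). Srf is a transcription factor of muscle and cytoskeletal genes, and Mkl1 is its cofactor, held in the cytoplasm by monomeric actin. Per the study's methods, pMXs vectors carried the transgenes and the hairpins were driven by an H1 promoter. The methods name the NPC lines NSEB5-2C and N31 for molecular work, and which of them the arrays used is not given in the sources used here.

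TGF-beta and activin ligands bind serine/threonine kinase receptors that phosphorylate Smad2 and Smad3, whereas BMPs act through Smad1, Smad5 and Smad9. Both branches induce Smad7, which blocks the receptors in a feedback loop, and BMPs strongly induce the Id genes, whose products bind E proteins and keep bHLH factors from DNA. In neural progenitors BMP signals are known to favour astrocytes, and TGF-beta is known to induce smooth muscle genes in mesenchymal cells.

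The promoters of Tgfb2, Bmp4 and Id2 are shown because these were the members that changed by over 2-fold against a control. Each is the 250 bases before the RefSeq start site (build GRCm38.p6), 5′ to 3′ on the strand of the gene, and capitals mark a motif found. Tgfb2 lies at chr1:186705990-186706239 on the minus strand, Bmp4 at chr14:46390670-46390919 on the minus strand and Id2 at chr12:25096093-25096342 on the minus strand.
Tgfb2: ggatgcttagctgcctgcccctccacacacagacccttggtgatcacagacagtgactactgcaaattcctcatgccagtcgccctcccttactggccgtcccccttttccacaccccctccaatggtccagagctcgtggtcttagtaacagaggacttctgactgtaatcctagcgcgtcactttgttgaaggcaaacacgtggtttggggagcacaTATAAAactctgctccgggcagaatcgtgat
Bmp4: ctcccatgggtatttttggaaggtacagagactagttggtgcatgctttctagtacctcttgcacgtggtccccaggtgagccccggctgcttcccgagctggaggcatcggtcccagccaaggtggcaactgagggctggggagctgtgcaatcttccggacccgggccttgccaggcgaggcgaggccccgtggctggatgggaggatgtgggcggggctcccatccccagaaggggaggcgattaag
Id2: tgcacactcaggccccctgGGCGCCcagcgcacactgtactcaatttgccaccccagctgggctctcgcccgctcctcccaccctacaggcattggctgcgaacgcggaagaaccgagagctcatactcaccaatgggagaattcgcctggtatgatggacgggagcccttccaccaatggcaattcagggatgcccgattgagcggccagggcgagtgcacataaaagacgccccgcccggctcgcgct

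The windows were searched on both strands for the CArG box (the motif of Srf), the Smad-binding palindrome GTCTAGAC, the GC-rich Smad motif GGCGCC, the AP-1 motif TGANTCA and the TATA motif TATAAA, which can lie within a CArG box. Of all 32851 promoter windows of this length, 1.47% held a CArG box, 0.167% GTCTAGAC, 9.59% GGCGCC, 6.75% TGANTCA and 12.4% TATAAA. The Tgfb2 window held TATAAA from 31 to 26 bases before the start. Id2 held GGCGCC from 231 to 226 bases before it, and the Bmp4 window held none of the motifs. Windows were used for 7 members. Among the other 4, Tgfbi held GGCGCC, Inhba held TATAAA, and Tgfb1 and Id3 held none. No window of the 7 held a CArG box and no match overlapped another. Tgfb3, Id1 and Smad7 are named only.

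Levels are log2 signals relative to the 75th percentile of the array, and differences are log2 fold changes from limma with their standard error (SE). A gene was said to rise or fall when its adjusted p was under 0.05 and its change over 2-fold, on its brightest probe. A gene that met only the first criterion is described as passing the adjusted p alone. Duplicates of the Actb knockdown are described as technical in the study, so their error is that between arrays and not between cultures. What kind of duplicates the overexpression arrays are is not given in the sources used here, and their error may likewise be between arrays only. Having 2 arrays a group limits the precision. The Mkl1 arrays and those labelled Srf shared the EGFP arrays, and both hairpins shared the shEGFP arrays. In bulk RNA, fewer cells of a type and less RNA per cell cannot be told apart.

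The count of probes well above background ranged from 33008 to 40359, and both extremes were shActb_2 arrays. Duplicates correlated at r = 0.993 to 0.998 over probes, with EGFP the least alike (2.74% of probes over 2-fold apart). Actb was lower with shActb_1 and shActb_2, by under 2-fold (log2 fold changes -0.53 and -0.65, adjusted p = 0.00128 and 0.000197, limma). Both Srf probes fell on the arrays labelled Srf, with log2 fold changes of -1.40 and -2.46, and so went against that label. Whether these probes can read the transgene was not determined. Mkl1 (listed as Mrtfa) passed no threshold on the arrays labelled Mkl1, at 0.17 and 0.20 on its 2 probes. Of the 12 neural progenitor markers, 9 were well above background on every array, whereas Sox3 was so on none. Slide 1 held EGFP, Mkl1 and the arrays labelled Srf, and slide 2 held shEGFP and shActb_1, with EGFP in another row of its slide than the other 2 groups. Only shActb_2 lay on slide 3, so hairpin and slide cannot be told apart for it.

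Bmp4 was lower in NPCs given Mkl1 or either Actb hairpin and higher on the arrays labelled Srf. Tgfb2 went the same ways. The Id genes were lower with Mkl1 and shActb_1 but higher with shActb_2, and Smad7 stayed within 0.21 of its control on the log2 scale in all 4 comparisons.

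**Figure D1:**
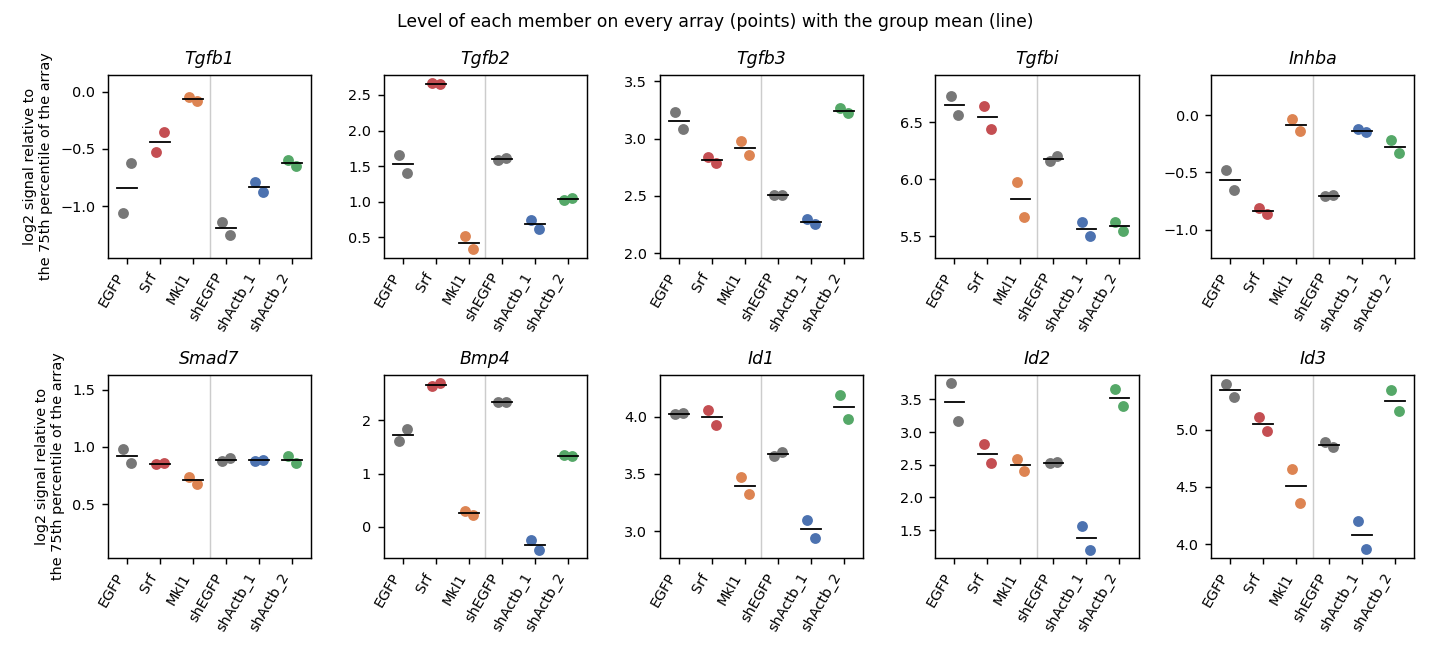
Level of each of the 10 members (y axis, log2 signal relative to the 75th percentile of the array) on each of the 12 arrays (points), by group (x axis), with the group mean as a line and the overexpression experiment left of the grey line. The 2 arrays labelled Srf had the highest Bmp4 and Tgfb2 levels, and the 2 shActb_1 arrays the lowest Bmp4, Id1, Id2 and Id3 levels.

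Bmp4 encodes a ligand of the BMP branch that patterns the dorsal neural tube. Its level was 1.62 and 1.83 on the EGFP arrays, 0.29 and 0.23 with Mkl1, and 2.64 and 2.70 on the arrays labelled Srf. In the knockdown experiment it was 2.35 and 2.34 with shEGFP, -0.25 and -0.43 with shActb_1, and 1.34 and 1.33 with shActb_2. Ordered from high to low, the groups were the arrays labelled Srf, shEGFP, EGFP, shActb_2, Mkl1 and shActb_1, and no 2 neighbours overlapped, though levels of the 2 experiments were not tested against each other. Bmp4 fell with shActb_1 (log2 fold change -2.69, SE 0.09, adjusted p = 1.62e-05, limma), a 6.44-fold difference. It fell with Mkl1 (-1.46, SE 0.09, adjusted p = 0.000142) and with shActb_2 (-1.01, SE 0.09, adjusted p = 0.000273). The shActb_2 value lay just past 2-fold and was -0.94 with the normexp background correction. On the arrays labelled Srf the log2 fold change was 0.95 (SE 0.09, adjusted p = 0.000313), just under 2-fold, and it was 1.06 without EGFP replicate 2. The second Bmp4 probe was below background on all 12 arrays and was not tested.

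Tgfb2 encodes one of the TGF-beta ligands. Its brighter probe read 1.66 and 1.40 with EGFP, 0.52 and 0.33 with Mkl1, and 2.67 and 2.65 on the arrays labelled Srf. It read 1.58 and 1.61 with shEGFP, 0.74 and 0.62 with shActb_1, and 1.02 and 1.05 with shActb_2. No array of a treatment overlapped its control, and the EGFP and shEGFP arrays overlapped each other. Tgfb2 rose on the arrays labelled Srf (log2 fold change 1.12, SE 0.10, adjusted p = 0.000268) and fell with Mkl1 (-1.11, SE 0.10, adjusted p = 0.000683). Without EGFP replicate 2 the first value was 0.99, under 2-fold, and without EGFP replicate 1 the second was -0.98. With shActb_1 (-0.91, adjusted p = 0.00212) and shActb_2 (-0.56, adjusted p = 0.00422) it passed the adjusted p alone. The other Tgfb2 probe gave 0.87 on the arrays labelled Srf, -1.44 for Mkl1, -1.06 for shActb_1 and -0.84 for shActb_2. Both probes thus had one sign in each comparison but differed in which passed 2-fold on the arrays labelled Srf and shActb_1.

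Tgfb1 and Tgfb3 encode the other TGF-beta ligands, and neither reached 2-fold anywhere. Tgfb1 read -1.06 and -0.62 with EGFP, -0.05 and -0.08 with Mkl1, and -0.53 and -0.35 on the arrays labelled Srf. It read -1.14 and -1.25 with shEGFP, -0.79 and -0.88 with shActb_1, and -0.60 and -0.65 with shActb_2. Every treated array was above its controls, and Mkl1 (0.78, SE 0.14, adjusted p = 0.00812) and shActb_2 (0.57, SE 0.14, adjusted p = 0.0136) passed the adjusted p alone. Tgfb3 read 3.23 and 3.08 with EGFP, 2.98 and 2.86 with Mkl1, and 2.84 and 2.79 on the arrays labelled Srf, and 2.51 and 2.51 with shEGFP, 2.30 and 2.25 with shActb_1, and 3.27 and 3.22 with shActb_2. It was lower than its control in 3 treatments and higher in shActb_2, where the value was 0.73 (SE 0.07, adjusted p = 0.000417). The arrays labelled Srf gave -0.34 (SE 0.07, adjusted p = 0.0126), and Mkl1 and shActb_1 did not pass.

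Inhba encodes the subunit of activin A. It read -0.48 and -0.65 with EGFP, -0.03 and -0.14 with Mkl1, and -0.81 and -0.86 on the arrays labelled Srf, then -0.71 and -0.70 with shEGFP, -0.12 and -0.15 with shActb_1, and -0.22 and -0.33 with shActb_2. The arrays of Mkl1 and both hairpins lay above their controls and those labelled Srf below. All 4 differences passed the adjusted p alone, at 0.48 for Mkl1, 0.56 for shActb_1, 0.43 for shActb_2 and -0.26 on the arrays labelled Srf (SE 0.08 each, adjusted p = 0.00579, 0.00533, 0.00451 and 0.0429).

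Tgfbi encodes a secreted matrix protein first described as induced by TGF-beta. Its level was 6.73 and 6.56 with EGFP, 5.98 and 5.67 with Mkl1, and 6.64 and 6.44 on the arrays labelled Srf. It was 6.16 and 6.20 with shEGFP, 5.63 and 5.50 with shActb_1, and 5.63 and 5.55 with shActb_2. The Mkl1 and hairpin arrays lay below their controls, and the arrays labelled Srf overlapped theirs. Tgfbi passed the adjusted p alone for Mkl1 (-0.82, SE 0.12, adjusted p = 0.00415), shActb_1 (-0.62, adjusted p = 0.0204) and shActb_2 (-0.59, adjusted p = 0.00734). The value on the arrays labelled Srf was -0.10 (95% interval -0.38 to 0.18). Of 7 fibroblast markers, 5 were above background on every array. Their summed level, carried mostly by Col1a2 and Col3a1, was lower than the control in all 4 treatments. It was 7.38 to 7.39 with EGFP, 6.64 to 6.90 with Mkl1, 6.52 to 6.57 on the arrays labelled Srf, 7.04 to 7.13 with shEGFP, 6.68 to 6.82 with shActb_1 and 6.33 to 6.39 with shActb_2. Single markers went the other way, as the mean level of Thy1 was above the control in all 4 treatments and those of Col1a1 and Lum on the arrays labelled Srf. Lum, above background on 3 arrays, read a mean of -1.47 there against -5.84 with EGFP. Their part in the result was not tested.

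Smad7, the feedback inhibitor induced by both branches, read 0.98 and 0.86 with EGFP, 0.74 and 0.68 with Mkl1, and 0.85 and 0.86 on the arrays labelled Srf. With shEGFP it read 0.88 and 0.90, with shActb_1 0.88 and 0.89, and with shActb_2 0.92 and 0.86. All 12 arrays spanned less than the change that 2-fold requires. Mkl1 passed the adjusted p alone (-0.21, SE 0.06, adjusted p = 0.0435). The 95% interval of the difference was -0.21 to 0.07 on the arrays labelled Srf, -0.15 to 0.13 for shActb_1 and -0.14 to 0.14 for shActb_2.

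**Figure D2:**
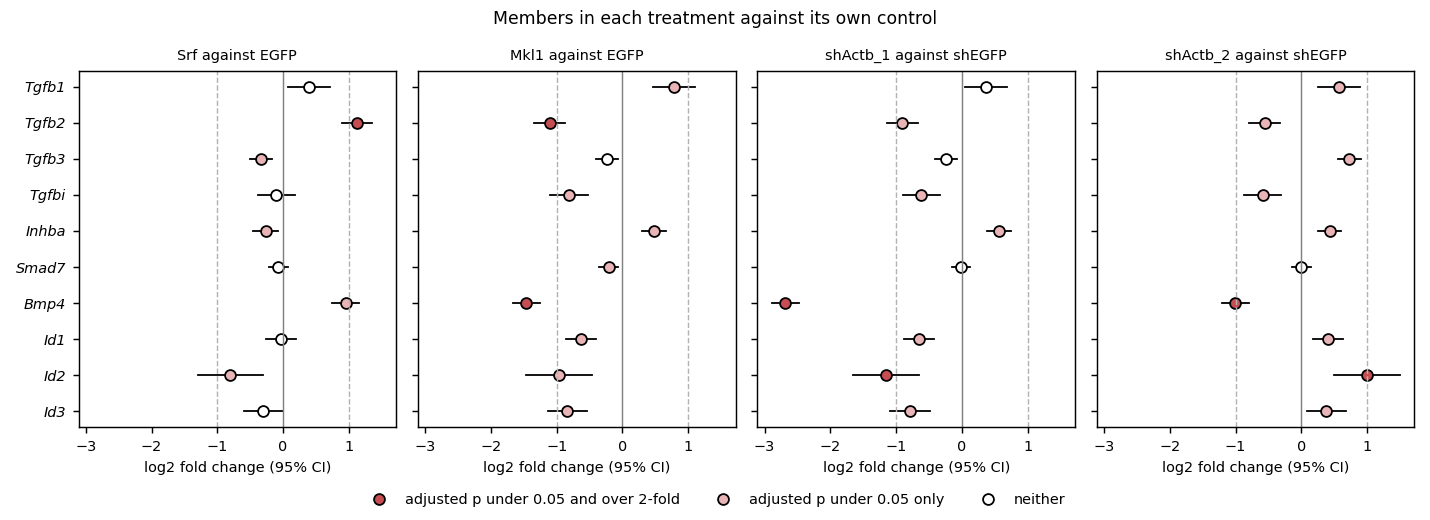
Log2 fold change (x axis, point, with its 95% interval as a bar) of the 10 members (y axis) in each treatment against its control, with dashed lines at 2-fold and the fill showing which criteria were met. Bmp4 and Tgfb2 lie left of 0 with Mkl1 and both hairpins and right of it on the arrays labelled Srf, and the 3 Id genes lie left of 0 with Mkl1 and shActb_1 and right of it with shActb_2.

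The 3 Id genes were close to one another in pattern. Id2 read 3.75 and 3.17 with EGFP, 2.59 and 2.41 with Mkl1, and 2.82 and 2.52 on the arrays labelled Srf. It read 2.52 and 2.54 with shEGFP, 1.56 and 1.20 with shActb_1, and 3.66 and 3.40 with shActb_2. The hairpin groups thus lay on opposite sides of their control with no overlap. Id2 fell with shActb_1 (log2 fold change -1.15, SE 0.21, adjusted p = 0.0164) and rose with shActb_2 (1.0, SE 0.21, adjusted p = 0.00845). The shActb_1 call was lost without shActb_1 replicate 2 (adjusted p = 0.112), shEGFP replicate 1 (0.096) or shEGFP replicate 2 (0.0819). The shActb_2 value sat at the 2-fold line and was 0.86 with quantile normalization, 0.87 without shActb_2 replicate 1 and 0.99 without shEGFP replicate 1. Mkl1 (-0.96, adjusted p = 0.0192) and the arrays labelled Srf (-0.80, adjusted p = 0.0315) passed the adjusted p alone, but both passed 2-fold without EGFP replicate 2 (-1.25 and -1.09), as did Mkl1 with quantile normalization (-1.02).

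Id1 read 4.02 and 4.03 with EGFP, 3.47 and 3.32 with Mkl1, and 4.06 and 3.93 on the arrays labelled Srf, and then 3.66 and 3.69 with shEGFP, 3.10 and 2.94 with shActb_1, and 4.19 and 3.98 with shActb_2. Id3 read 5.40 and 5.29 with EGFP, 4.66 and 4.36 with Mkl1, and 5.11 and 4.99 on the arrays labelled Srf, and then 4.89 and 4.85 with shEGFP, 4.20 and 3.96 with shActb_1, and 5.35 and 5.16 with shActb_2. In both genes the Mkl1 and shActb_1 arrays were below their controls and the shActb_2 arrays above. Id1 passed the adjusted p alone for Mkl1 (-0.63, adjusted p = 0.00463), shActb_1 (-0.65, adjusted p = 0.00689) and shActb_2 (0.41, adjusted p = 0.0128), as did Id3 (-0.84, -0.79 and 0.38, adjusted p = 0.00462, 0.00953 and 0.0483). Against EGFP, the arrays labelled Srf had Id1 at -0.03 (95% interval -0.26 to 0.20) and Id3 at -0.30 (adjusted p = 0.134). Astrocyte markers, 3 of 6 above background on every array, had a summed level of 6.03 to 6.34 with EGFP, 5.66 to 5.80 with Mkl1, 5.12 to 5.23 on the arrays labelled Srf, 5.65 to 5.67 with shEGFP, 5.20 to 5.23 with shActb_1 and 5.83 to 5.92 with shActb_2. This sum was mostly Aldoc, and the other 2 of the 3 markers, Aqp4 and Aldh1l1, had lower mean levels with shActb_2 than with shEGFP. The part of these markers in the Id results was not tested.

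Counted over the 10 members, 1 changed on the arrays labelled Srf (Tgfb2, up), against 5.54% of all probes tested, and 5 passed the adjusted p alone, 2 up and 3 down, against 25.5%. With Mkl1, 2 fell (Bmp4 and Tgfb2, 2.78% of all probes changed) and 9 passed the adjusted p, 2 up and 7 down (20.8%). When the fit held only the EGFP and Mkl1 arrays, no member changed (Bmp4 adjusted p = 0.0559, Tgfb2 0.0743), and without EGFP replicate 1 the count was 1. With shActb_1, 2 fell (Bmp4 and Id2, against 1.61%) and 7 passed the adjusted p, 1 up and 6 down (9.41%). With shActb_2, Id2 rose and Bmp4 fell (6.31%), and 9 passed the adjusted p, 6 up and 3 down (40.3%). The median log2 fold change of the members was -0.08 on the arrays labelled Srf, -0.73 for Mkl1, -0.64 for shActb_1 and 0.40 for shActb_2, and over all probes tested it was -0.04, -0.03, 0.01 and -0.02. Other cell markers also moved on the arrays labelled Srf. Of 5 macrophage or microglia markers, 4 were above background on every array, with a summed level of 2.48 to 2.63 there, 1.31 to 1.55 with EGFP, 1.86 to 1.87 with Mkl1 and 1.27 to 1.45 in the knockdown experiment. The mean level of Cd68 was 1.99 against 0.87 with EGFP and that of Csf1r 0.80 against -0.64, while Ptprc, Adgre1 and Aif1 were below EGFP. Neuron markers, 4 of 6 above background on every array, summed to 3.28 to 3.38 there, 2.97 to 2.98 with EGFP, 2.63 to 2.74 with Mkl1 and 2.88 to 3.38 in the knockdown experiment. That sum was mostly Snap25. Snap25, Tubb3 (0.22 against -1.31), Syt1 and Rbfox3 had higher mean levels on the arrays labelled Srf than with EGFP, and Map2 and Dcx lower ones. The part of these markers in the member values was not tested.

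The treatments were then set against each other. On the arrays labelled Srf, Tgfb2 was 2.23 (SE 0.10, adjusted p = 1.17e-05) and Bmp4 2.41 (SE 0.09, adjusted p = 5.22e-06) above the Mkl1 arrays on the log2 scale. These 2 were the members that changed, against 5.0% of all probes, and 6 passed the adjusted p, 5 up and 1 down (25.6%). The opposite sign was that of Inhba (-0.75, adjusted p = 0.000475). Id2 did not differ beyond its error (0.16, 95% interval -0.33 to 0.66). In shActb_2 against shActb_1, 4 members rose, against 5.03% of probes. They were Id2 (2.15, SE 0.21, adjusted p = 0.000678), Bmp4 (1.68, SE 0.09, adjusted p = 0.000114), Id3 (1.17, SE 0.13, adjusted p = 0.000942) and Id1 (1.07, SE 0.10, adjusted p = 0.000519). Tgfb3 (0.97, adjusted p = 0.000269) and Tgfb2 (0.35, adjusted p = 0.0337) were also higher, so 6 passed the adjusted p (32.1% of probes). Since shActb_2 alone lay on slide 3, this difference between hairpins cannot be told apart from one between slides.

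**Figure D3:**
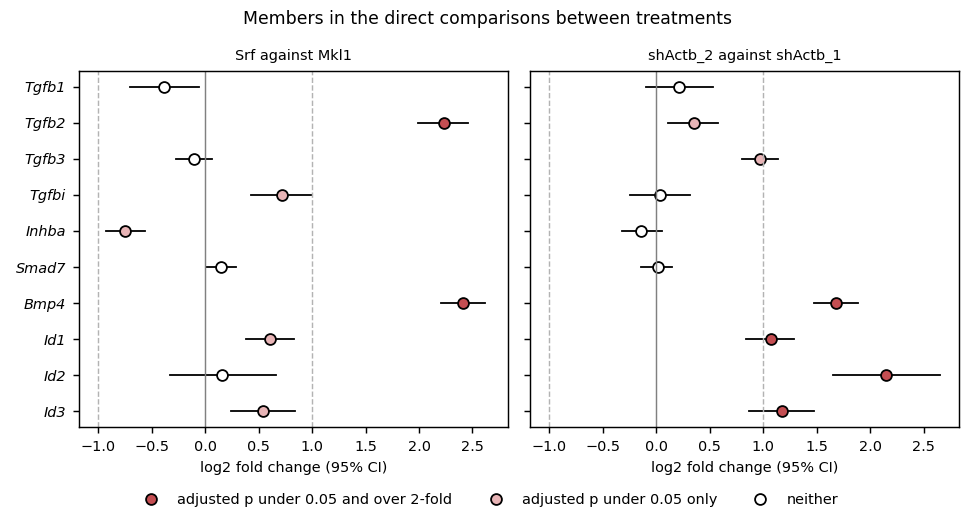
Log2 fold change (x axis, point, with its 95% interval as a bar) of the 10 members (y axis) between treatments, with dashed lines at 2-fold. Tgfb2 and Bmp4 lie past 2 in the comparison of the arrays labelled Srf with Mkl1, and Id2, Bmp4, Id3 and Id1 lie past the 2-fold line in that of the 2 hairpins.

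The rest of the pathway was read from lists chosen from general knowledge, with earlier results of these data known, in which some members recur. Over all probes tested, 5.54% changed on the arrays labelled Srf, 2.78% with Mkl1, 1.61% with shActb_1 and 6.31% with shActb_2, which is the background for the counts that follow. When the fit held only the EGFP and Mkl1 arrays, the Mkl1 counts fell to 0 for the ligands, the Smads and regulators, the TGF-beta-induced genes and the bHLH partners, and to 1 increase and 1 decrease for the extracellular regulators, and the smooth muscle genes described further on had 5 increases in place of 8. Of 24 ligand genes tested, 2 rose and 1 fell on the arrays labelled Srf, with Mkl1 2 rose and 2 fell, and 2 rose and 1 fell with each hairpin. Without EGFP replicate 1 the counts were 3 and 2 on the arrays labelled Srf and 2 and 1 with Mkl1. Without EGFP replicate 2 they were 3 and 1, and 2 and 3, and without replicate 2 of the arrays labelled Srf they were 2 and 2 there. Inhbb, the activin B subunit, rose on the arrays labelled Srf (1.22), with Mkl1 (2.01) and with shActb_1 (1.32), and was at 0.97 with shActb_2. The first of these calls was lost without EGFP replicate 1 (0.96) and with the compared arrays only. Its level was -0.60 and -0.08 with EGFP and 1.55 and 1.80 with Mkl1. Bmp8b, a BMP family ligand, rose with Mkl1 (1.66), shActb_1 (2.13) and shActb_2 (2.25) and was at -0.25 on the arrays labelled Srf (adjusted p = 0.179). Lefty1, an inhibitor of Nodal, fell on the arrays labelled Srf (-1.48), and Bmp7 rose with shActb_2 (1.31, but 0.96 with normexp, where the ligand counts were 1 and 0). The list's median lay between -0.16 and -0.04 in the 4 comparisons.

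Among 15 receptors and coreceptors, Acvr2b, an activin receptor, rose on the arrays labelled Srf (1.28) and Rgmb, a BMP coreceptor, passed both criteria with shActb_2 (-1.01), but not when any 1 of the 4 arrays was left out (-1.13 to -0.89). None changed with Mkl1 or shActb_1 by limma, where 4 and 3 were higher and 5 and 3 lower at an unadjusted p under 0.05. With Mkl1 the receptors had 1 increase and 1 decrease without EGFP replicate 2, and 1 decrease without Mkl1 replicate 2. Of 18 Smads and regulators, Smad6, the inhibitor of the BMP branch, fell with Mkl1 (-1.39, adjusted p = 0.00108). With shActb_2 Smad9 rose (1.51, but 0.76 with normexp) and Ldlrad4 fell (-1.10, but -0.95 without shActb_2 replicate 2 and -0.70 with normexp), and with shActb_1 none changed (limma; 3 higher and 1 lower at an unadjusted p under 0.05). On the 2 arrays labelled Srf, Pmepa1, a TGF-beta-induced inhibitor, fell by 1.86 on the log2 scale on its brightest probe. Its EGFP arrays read -1.77 and -3.40, both arrays labelled Srf -4.45 and -4.44, and its other probe gave -0.36. This call was lost without EGFP replicate 1 (-1.04) or either array labelled Srf, and normexp gave -0.88.

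Extracellular regulators had 1 increase and 2 decreases of 25 tested on the arrays labelled Srf, 3 and 3 of 24 with Mkl1, 0 and 2 of 23 with shActb_1, and 2 and 1 of 25 with shActb_2. With shActb_2 the decreases were 3 without shEGFP replicate 2 or with quantile normalization. Dcn (decorin), which binds TGF-beta, fell with Mkl1 (-1.79), shActb_1 (-1.96) and shActb_2 (-1.55). The arrays labelled Srf had it at 0.85 (adjusted p = 0.000111). Fbn2, a microfibril protein, fell on the arrays labelled Srf (-1.43) and with Mkl1 (-2.03) and shActb_1 (-1.73), and both of its probes changed in each. With Mkl1, Ltbp2 also fell (-1.08). Fstl3, an activin antagonist, rose with Mkl1 (1.23) and shActb_2 (1.24), and Nbl1, a BMP antagonist, rose with Mkl1 (1.04, but 0.96 without Mkl1 replicate 1). Fst (follistatin), another activin antagonist, was not well above background in either control and was tested only through the brighter treated groups. It was 3.35-fold higher with Mkl1 and at least 3.65-fold higher with shActb_2, where the plain fold was 3.71. With normexp its log2 fold changes were 0.65 and 0.70, under 2-fold, so these folds hold only for the percentile-shifted signals. Such bounds set the brighter group against the lowest signal well above background on each dim array. Where the probe's own signal was higher than that, it was used instead, and with Mkl1 the bound on Fst was the plain fold. Fst is among the increases counted with Mkl1 and shActb_2. Counts from probes above background on all 12 arrays were 2 and 3 of 21 with Mkl1. With shActb_2 they were 1 and 1 of 21. Bmper rose on the arrays labelled Srf (1.02), and the BMP antagonist Grem1 was at least 1.74-fold lower, being below background on both arrays. Grem1 is 1 of the 2 decreases counted there, and its call was lost in 3 of the 4 fits that left out an array, as was that of Bmper in 2.

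Genes induced by TGF-beta are read next. Of 24 tested, 2 rose and 3 fell on the arrays labelled Srf, with Mkl1 0 rose and 2 fell, and none changed with shActb_1 or shActb_2, though with shActb_2 2 rose without shActb_2 replicate 2, and 1 rose and 1 fell with quantile normalization. For those, 11 and 6 were higher and 6 and 6 lower at an unadjusted p under 0.05 (limma), and 3 and 6 higher and 3 and 5 lower passed the adjusted p alone, against 9.41% and 40.3% of all probes. The list median was 0.07 on the arrays labelled Srf, -0.01 for Mkl1, 0.10 for shActb_1 and 0.11 for shActb_2. The increases on the arrays labelled Srf were Pdgfb, a growth factor (1.87, its other probe 0.49), and Ccn2, a matricellular protein (1.28, adjusted p = 5.43e-05). The decreases were Has2, a hyaluronan synthase (-1.92), Pmepa1, whose call was lost as above, and the collagen gene Col1a2 (-1.10). Has2 (-1.03) and Ltbp2 fell with Mkl1, which they did not without EGFP replicate 1, where the count was 0, and without EGFP replicate 2 the list had 1 increase and 3 decreases with Mkl1.

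BMP-induced genes, 4 of whose 16 are members (Id1, Id2, Id3 and Smad7), were mostly lower with Mkl1 and shActb_1. Of 15 tested, 0 rose and 3 fell on the arrays labelled Srf, with Mkl1 0 and 4 of 15, with shActb_1 0 and 4 of 14, and with shActb_2 2 rose and 1 fell of 15. The 3 on the arrays labelled Srf include Grem1, of which only the bound of 1.74-fold is known, and with probes above background on all 12 arrays they were 2 of 14. At the adjusted p alone, 3 were higher and 7 lower on the arrays labelled Srf, 1 and 10 with Mkl1, 0 and 8 with shActb_1, and 6 and 3 with shActb_2, where 25.5%, 20.8%, 9.41% and 40.3% of all probes passed it in either direction. The list median was -0.30, -0.63, -0.64 and 0.29. Dlx5, a homeobox gene, fell in all 4 comparisons, by log2 fold changes of -1.31, -1.61, -1.38 and -1.14. With the normexp correction these were -0.83, -0.98, -0.99 and -0.84, all under 2-fold. Its level was -2.09 and -2.05 with EGFP, -3.40 and -3.35 on the arrays labelled Srf and -3.64 and -3.72 with Mkl1. It was -1.85 and -1.91 with shEGFP, -3.27 and -3.25 with shActb_1, and -2.95 and -3.09 with shActb_2. Hey1, a Notch and BMP target, fell with Mkl1 (-1.15) and shActb_1 (-1.28), and Atoh8 fell with shActb_1 (-1.22, a call lost when any 1 of 3 of the 4 arrays was left out) and, named there after its values were seen, with Mkl1 (-1.14). Runx2 fell on the arrays labelled Srf on its brightest probe (-1.11, but -0.98 without EGFP replicate 1, and others -0.21 and -0.62).

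The count of BMP-induced genes that fell depended on single arrays. It was 1 on the arrays labelled Srf without EGFP replicate 1, 4 without EGFP replicate 2 and 2 without replicate 2 of those labelled Srf, and for Mkl1 it was 1 when the fit held the compared arrays alone. With shActb_1 it was 2 without shActb_1 replicate 2, shEGFP replicate 1 or shEGFP replicate 2, and with the normexp correction it was 0 on the arrays labelled Srf, 2 for Mkl1 and 2 for shActb_1. With shActb_2 quantile normalization left 1 increase and 0 decreases. Between the hairpins, 7 of 15 BMP-induced genes tested rose with shActb_2 over shActb_1 and 1, Nog (-1.13), fell, with a median of 0.81. Of all probes tested 5.03% changed, and hairpin and slide cannot be told apart here. The Nog call was lost without shActb_1 replicate 2 (-1.01) or shActb_2 replicate 2 (-0.79), with normexp and with the compared arrays only. Outside the members, Smad9 (1.55, but 0.80 with normexp) and Atoh8 (1.51) were among the 7 that rose.

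**Figure D4:**
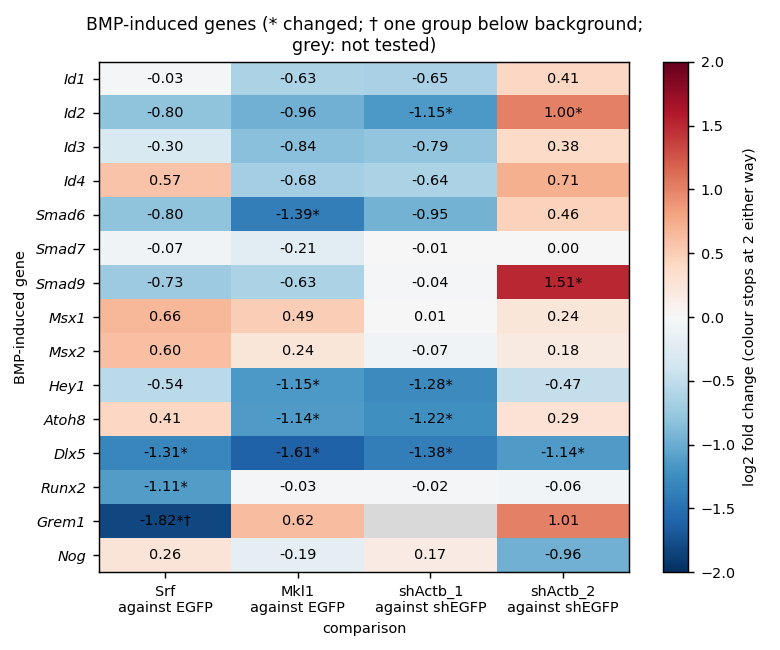
Log2 fold change (cell, with colour) of the BMP-induced genes on the array that were tested (rows) in each treatment against its control (columns). Dlx5 is starred in every column, the Id genes are blue with Mkl1 and shActb_1 and red with shActb_2, and Grem1 was below background on the arrays labelled Srf (dagger).

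Smooth muscle genes rose in all 4 comparisons beside these values. Of the genes tested, 6 rose and 1 fell of 13 on the arrays labelled Srf, 8 rose of 13 with Mkl1, 5 of 12 with shActb_1 and 8 of 13 with shActb_2. The list median was 0.26, 1.33, 0.78 and 1.14. Myh11, not well above background in either control, is among the increases except with shActb_1, where it was not tested. With probes above background on all 12 arrays, 5 rose and 1 fell of 12 on the arrays labelled Srf. By that filter 7 of 12 rose with Mkl1, 5 of 12 with shActb_1 and 7 of 12 with shActb_2. Acta2, smooth muscle actin, rose by 3.37, 6.93, 4.42 and 5.04 on the log2 scale. Its level was -0.61 and -0.48 with EGFP, 2.75 and 2.91 on the arrays labelled Srf, 6.39 and 6.38 with Mkl1, 1.26 and 1.20 with shEGFP, 5.71 and 5.58 with shActb_1, and 6.26 and 6.28 with shActb_2. Actg2, another smooth muscle actin, rose by 4.60, 5.41, 2.76 and 5.29. Cnn1, calponin, rose by 1.14, 6.56, 4.23 and 4.76, and Tagln by 2.34, 2.32, 2.20 and 2.53. The decrease on the arrays labelled Srf was that of Synpo2 (-1.42). Myl9 rose with Mkl1 (3.60), shActb_1 (3.12) and shActb_2 (4.33). It did not rise on the arrays labelled Srf, which read 1.80 and 1.74 against 1.57 and 1.46 with EGFP. Set beside them, Smad7 passed 2-fold in none of the 4 comparisons and Bmp4 fell in 3, just past 2-fold with shActb_2. On the arrays labelled Srf, Bmp4 was at 0.95, and Tgfb2, Inhbb, Ccn2 and Pdgfb rose while Has2, Pmepa1 and Col1a2 fell. Inhbb also rose with Mkl1 and shActb_1, and Tgfb2, Has2 and Ltbp2 fell with Mkl1. Whether these values reflect TGF-beta signalling was not tested.

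**Figure D5:**
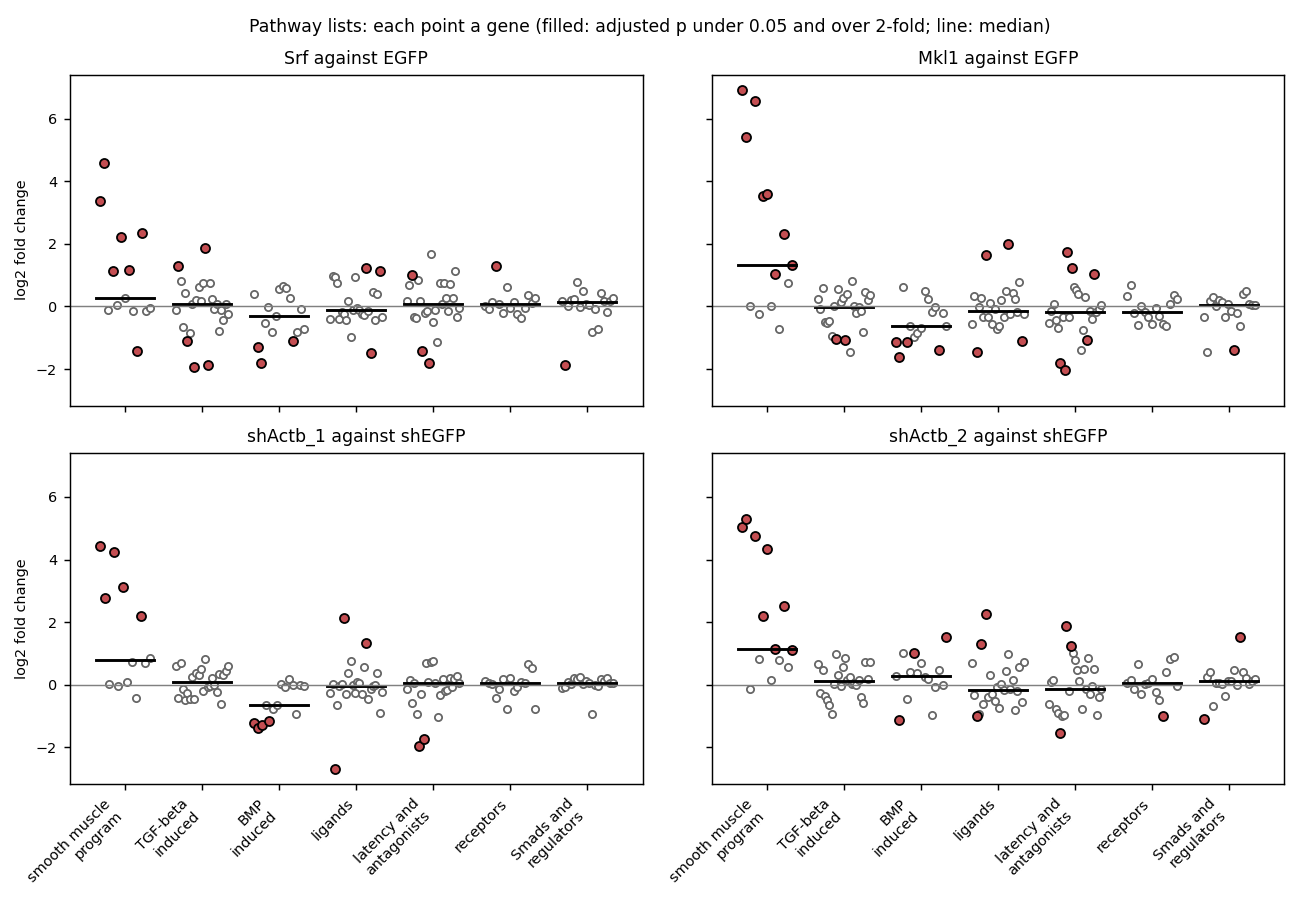
Log2 fold change (y axis) of each gene tested (points, filled where changed) in 7 lists (x axis), with the list median as a line, in each treatment against its control. Smooth muscle genes reach 6.93, whereas list medians of the TGF-beta-induced genes stay between -0.01 and 0.11, and points for Fst, Grem1 and Myh11 include groups below background.

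The bHLH partners of the Id proteins had few changes. Of 7 tested, Hes1 rose on the arrays labelled Srf (1.11) and Hey1 fell with Mkl1, and of 9 tested Hey1 fell with shActb_1 and none changed with shActb_2 (limma; 1 higher and 3 lower at an unadjusted p under 0.05). None of these calls held with normexp, which gave 0.89 for Hes1 and -0.81 and -0.94 for Hey1.

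Across the 12 arrays, which are 6 groups of duplicates on 3 slides, the nearest pattern to Bmp4 among 13926 genes was that of Cxcl5 (Pearson r = 0.973), followed by Gucy1b1 (0.968) and Sulf1 (0.967). For Tgfb2 they were Prxl2b (0.986), Cish (0.985) and Zfp454 (0.985), and for Id2 they were Ndufv3 (0.944), Cpt2 (0.938) and Id3 (0.938). Among the members, Id1 and Id3 were the closest pair (r = 0.98), Tgfb2 and Bmp4 went together (0.88), and Inhba ran opposite to Bmp4 (-0.93) and Tgfb2 (-0.92). These values describe 6 conditions and carry no test.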

How the data were processed

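The authors quantified 1-colour Agilent scans with Feature Extraction 11.5.1.1 and deposited a background-subtracted intensity per spot, not normalized between arrays. They also deposited a log2 table of the same arrays after a percentile shift. The 62976 features match the format that the methods name, which differs from the labels.

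Control spots and outlier spots were left out, log2 was taken, replicate spots were averaged and each array was shifted by its 75th percentile. Probes were named through RefSeq (28026 of 55681, 50.3%), and promoters come from RefSeq GRCm38.p6. The 12 arrays were fitted together with limma 3.58.1 in R 4.3.3, 1 mean per group, on probes that both arrays of at least 1 compared group showed well above background, two-sided, with Benjamini-Hochberg adjustment over all probes tested. The 2-fold threshold is the one the study used, and its array methods name no test. The fit was tested on simulated data.

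The members and lists were chosen with earlier results of these data known. From each list, up to 3 increases and 3 decreases per comparison were named. Alternatives were the deposited table, normexp (offset 50, median signal), quantile normalization, other filters and thresholds, the compared arrays only, 1 slide only, a variance trend, a replicate block, the mean of probes, the mean of both hairpins and each array left out.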

Additional observations from a re-analysis of the deposited data

Results flagged for a closer look

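Treatments that share a control differed in several members by the test of the difference itself (limma). Against EGFP, the arrays labelled Srf and Mkl1 differed in Tgfb2 (2.23 higher on the arrays labelled Srf, on the log2 scale) and Bmp4 (2.41 higher), and the arrays labelled Srf lay above the control for both genes and the Mkl1 arrays below. Against shEGFP, the 2 Actb hairpins differed in Bmp4 (1.68 higher with shActb_2), Id1 (1.07), Id2 (2.15) and Id3 (1.17). For the 3 Id genes the hairpins lay on opposite sides of the control, while Bmp4 was below it with both. Id1 was at 0.96 without shActb_2 replicate 1 and 0.99 without shActb_1 replicate 2 or with quantile normalization, all under 2-fold. For the hairpins, slide and treatment cannot be told apart.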

How the results depend on the processing

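Each member's value in the 6 comparisons was recomputed under each alternative, and 896 of these values kept their direction and side of the threshold, 17 dropped below it and 14 changed sign. At the 2-fold threshold 4 values gained a call, namely Bmp4 and Id2 on the arrays labelled Srf and Id2 with Mkl1 without EGFP replicate 2, and Id2 with Mkl1 with quantile normalization. Of the list counts, 643 stayed within 1.5 times their value and 125 did not, and of the values of named list genes 1286 kept their call and 123 lost it. The sign changes lay mostly near 0. Id1 on the arrays labelled Srf was 0.01 with normexp and 0.04 without Srf replicate 2 (-0.10 to 0.04 over the arrays left out). Smad7 was 0.00 with shActb_1 without shEGFP replicate 2, 0.03 with shActb_2 without shActb_2 replicate 2 and 0.01 without shEGFP replicate 2 (-0.03 to 0.03). Between the hairpins, Tgfbi was -0.06 and Smad7 -0.01 with quantile normalization, Tgfbi was -0.04 without shActb_1 replicate 2 (-0.04 to 0.10), and Tgfbi was -0.01 and Smad7 -0.02 without shActb_2 replicate 1. The mean of both hairpins gave 0.25 for Tgfb3 (against -0.24 with shActb_1 alone) and -0.12, -0.07 and -0.21 for Id1, Id2 and Id3 (against increases with shActb_2 alone), by construction, since the hairpins differ. Numbers of members changed were 1 for the arrays labelled Srf (1 to 2 with an array left out, 2 without EGFP replicate 2, where Bmp4 and Id2 passed and Tgfb2 did not; 0 with the mean of probes), 2 for Mkl1 (1 to 3, 1 without EGFP replicate 1 and 3 without EGFP replicate 2; 0 with the compared arrays only), 2 for shActb_1 (1 to 2, 1 without shActb_1 replicate 2, shEGFP replicate 1 or shEGFP replicate 2; 1 with the mean of both hairpins), 2 for shActb_2 (1 to 2, 1 without shActb_2 replicate 1 or shEGFP replicate 1; 1 with the deposited table, normexp, quantile normalization or the mean of both hairpins) and 2 for the arrays labelled Srf against Mkl1. With no fold threshold they were 5, 9, 7, 9 and 6. With the replicate block the counts were again 1, 2, 2, 2 and 2, and 4 between the hairpins; replicate numbers are not said to pair arrays, and duplicate differences correlated between groups at -0.14 to 0.26. The cause of these shifts was not tested. A fit within 1 slide could not be made for shActb_2, and signal over background limits the second Bmp4 probe, Fst, Grem1 and Myh11.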
